A study of Mus musculus with 24 samples.

Results

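The genes described here are the oocyte-expressed mouse Nlrp genes Nlrp4a, Nlrp4b, Nlrp4c, Nlrp4e, Nlrp9a, Nlrp9b, Nlrp9c and Nlrp14. They were chosen by gene symbol and matched to Ensembl identifiers, which found 8 of 8 genes among 55471 annotated genes. All 8 lie on chromosome 7 (GRCm38), are annotated as protein-coding, and passed the filter on low counts in every fit. SLIM-seq, a low-input m6A RNA immunoprecipitation followed by sequencing, was performed on wild-type B6D2F1 mouse MII oocytes, late 1-cell (L1C) embryos and late 2-cell (L2C) embryos. Each stage had 3 libraries of RNA captured with the anti-m6A antibody (IP). It also had 3 libraries of RNA from the same batches that was not put through the capture (input). In a separate experiment, B6D2F1 zygotes received, by injection, mRNA for the RNA-cutting nuclease Cas13d together with crRNAs that target Ythdc1, the gene of a nuclear m6A reader (Ythdc1 KD, 3 libraries), or Cas13d mRNA alone (Ctrl, 3 libraries), and were collected at L2C. The Ctrl embryos therefore also carried Cas13d mRNA but received no crRNA, and no group with a non-targeting crRNA was analysed here. Nothing in the labels says that replicates came from separate pools of animals, so p-values measure the spread between these libraries, which may be technical.

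NLRP proteins carry a pyrin domain, a NACHT nucleotide-binding domain and leucine-rich repeats. Members such as NLRP3 build inflammasomes in immune cells, whereas the Nlrp4, Nlrp5, Nlrp9 and Nlrp14 genes of rodents are known for transcription in growing oocytes, and Nlrp5, Nlrp2 and Nlrp4f encode proteins assigned to the subcortical maternal complex beneath the egg membrane. Maternal transcripts of this kind are stored in the oocyte and are degraded around fertilization and zygotic genome activation. Within mRNA, adenosines in GGAC-type motifs are the usual sites of m6A. Loss of maternal Nlrp14 stops embryos early in cleavage, and knockdown of Nlrp4e impairs preimplantation development. Nlrp9b has also been described as a sensor of viral RNA in the intestinal epithelium.

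Nlrp9c (ENSMUSG00000040614, chr7:26322473-26403700, - strand), Nlrp4a (ENSMUSG00000040601, chr7:26435113-26476142, + strand) and Nlrp9a (ENSMUSG00000054102, chr7:26535023-26575615, + strand) were neighbours. Nlrp4e (ENSMUSG00000045693, chr7:23301192-23362277), Nlrp9b (ENSMUSG00000060508, chr7:19991465-20073306), Nlrp4b (ENSMUSG00000034087, chr7:10687789-10730168), Nlrp4c (ENSMUSG00000034690, chr7:6045161-6105150) and Nlrp14 (ENSMUSG00000016626, chr7:107166990-107198102), all on the + strand, lay by themselves.

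The Nlrp4 and Nlrp9 genes arose by duplication, and stretches that are identical between copies bear on how reads can be assigned. The coding sequences of Nlrp4c and Nlrp4e were identical at 93.9% of aligned bases, those of Nlrp4a and Nlrp4c at 86.2% (86.25%), and those of Nlrp9a and Nlrp9c at 87.7%. Between Nlrp14 and the other 7 genes the value lay between 62.7% and 65.9%. The longest run of bases common to the coding exons of Nlrp4a, Nlrp4c and Nlrp4e was 56 bases, and that common to Nlrp9a, Nlrp9b and Nlrp9c was 48 bases. Both are shown on the mRNA strand, read from the GRCm38.p6 genome, with the common run in capitals and 20 flanking bases of the same coding exon on each side, because the letters within the capitals cannot tell the 3 genes apart.
Nlrp4a (chr7:26450438-26450533, + strand): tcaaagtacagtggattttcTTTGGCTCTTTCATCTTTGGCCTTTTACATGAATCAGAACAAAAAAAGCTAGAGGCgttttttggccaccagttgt
Nlrp4c (chr7:6066570-6066665, + strand): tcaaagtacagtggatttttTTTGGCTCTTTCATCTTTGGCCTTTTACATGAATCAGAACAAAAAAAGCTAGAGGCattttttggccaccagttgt
Nlrp4e (chr7:23321558-23321653, + strand): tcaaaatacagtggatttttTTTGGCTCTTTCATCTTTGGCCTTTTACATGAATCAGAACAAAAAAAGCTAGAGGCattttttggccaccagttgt
Nlrp9a (chr7:26557608-26557695, + strand): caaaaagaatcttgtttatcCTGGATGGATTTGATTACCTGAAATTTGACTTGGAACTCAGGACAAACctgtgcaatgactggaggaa
Nlrp9b (chr7:20023489-20023576, + strand): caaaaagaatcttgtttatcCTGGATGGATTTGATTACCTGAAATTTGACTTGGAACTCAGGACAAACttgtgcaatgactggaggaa
Nlrp9c (chr7:26385416-26385503, - strand): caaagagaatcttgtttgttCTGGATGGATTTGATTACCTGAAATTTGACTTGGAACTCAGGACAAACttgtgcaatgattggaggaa

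Sharing was then counted over whole genes, as the share of 31-base stretches that also lie in the span of another annotated gene. Kallisto, which the authors used for the SLIM-seq libraries, matches reads by such words (31 bases is its default length) and splits a read between targets that share them. None of the 3177 exonic stretches of Nlrp14 was shared, and 0.663% of those of Nlrp4b were. The share was 8.82% for Nlrp4a, 9.08% for Nlrp9c, 11.85% for Nlrp9a, 14.1% for Nlrp9b and 23.3% for Nlrp4c. Nlrp4e stood apart with 54.95%, most of it held in common with 5 unprocessed pseudogenes of chromosome 7 (Gm16443, Gm8486, Gm8685, Gm8728 and Gm4541, with 38.7% to 45.5% of its exonic stretches each) and 18.1% with Nlrp4c. Estimated counts that were not whole, by more than 0.001, occurred in all 18 SLIM-seq libraries for Nlrp4e, Nlrp9b and Nlrp9c, in 17 for Nlrp4b, 16 for Nlrp4c, 15 for Nlrp14, 14 for Nlrp9a and 13 for Nlrp4a, an order that was not that of the exonic shares. The targets also held introns, and over whole spans the share of stretches in common ran from 4.49% (Nlrp14) to 40.3% (Nlrp4e). Other annotated genes overlapped with 3 spans: the pseudogene Gm18877 (530 bases, 136 of them exonic) and the rRNA gene n-R5s152 (119 bases) with Nlrp9b, the pseudogene Krt8-ps (945 bases) with Nlrp4e, and Gm45379 (549 bases) with Nlrp4b.

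**Figure D1:**
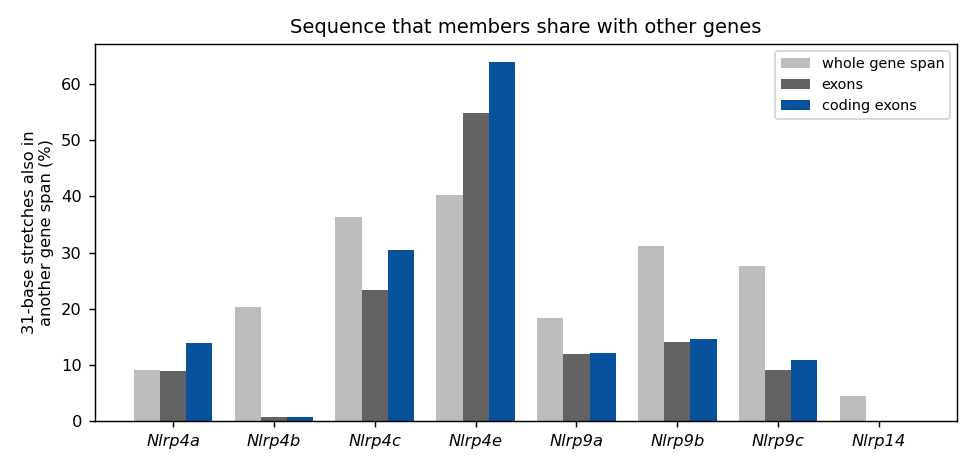
Share of 31-base stretches (%, y axis) that also occur in the span of another annotated gene, for the whole gene span, the exons and the coding exons of each of the 8 genes. Nlrp14 has no shared exonic stretch, whereas Nlrp4e reaches 54.95% over exons and 64.0% over coding exons.

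Upstream of the genes, Nlrp9a and Nlrp9c held the longest run common to any pair of the promoters available, with 106 identical bases. RefSeq promoters (250 bases before to 50 bases after the start, GRCm38.p6) were at hand for Nlrp4a and Nlrp4b (2 entries each), Nlrp4c, Nlrp4e, Nlrp9a, Nlrp9b and Nlrp9c. The run began 118 bases before the start of Nlrp9a and 162 bases before that of Nlrp9c, and held the E-box CAGGTG, a kind of element bound by the oocyte factor FIGLA. It is printed in capitals with 20 flanking bases upstream and fewer downstream, since Nlrp9a and Nlrp9c, alike in this stretch, stood at different levels in MII and L2C inputs. Per kb of exon, Nlrp9a was higher than Nlrp9c at MII and lower at L2C.
Nlrp9a (chr7:26534885-26535020, + strand): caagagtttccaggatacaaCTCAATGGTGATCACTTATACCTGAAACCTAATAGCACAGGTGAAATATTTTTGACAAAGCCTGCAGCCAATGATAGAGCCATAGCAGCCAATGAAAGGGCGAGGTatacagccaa
Nlrp9c (chr7:26403747-26403882, - strand): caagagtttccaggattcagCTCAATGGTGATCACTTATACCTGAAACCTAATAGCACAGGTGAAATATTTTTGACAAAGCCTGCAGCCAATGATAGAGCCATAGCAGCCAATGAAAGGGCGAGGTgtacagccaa
Searched on both strands, CAGGTG occurred in the promoters of Nlrp9a, Nlrp9b and Nlrp9c and in 20.2% of all 32851 promoters. TAATTG, a homeobox-type element, occurred in those of Nlrp9a and Nlrp9b and in 8.0% of all promoters, and GGGCGG in that of Nlrp4c and in 35.7% of all promoters.

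The SLIM-seq libraries held 11107421 to 39739950 estimated counts each, and the libraries of the knockdown experiment 3276715 to 5463868 counts on the genes of their merged table. Levels are given as CPM, the usual counts-per-library unit with library totals scaled by TMM, which is relative to all RNA in a library, and with poly(A)-selected RNA a change of RNA amount and a change of poly(A) tail cannot be told apart. Likewise, fewer cells of a type and less RNA per cell cannot be told apart in such bulk samples. The summed level of 10 oocyte markers was 26620 to 27850 CPM in MII inputs, 8015 to 8780 CPM in L1C inputs and 984 to 1019 CPM in L2C inputs, and that of 8 markers of the 2-cell embryo was 36.3 to 43.5, 119 to 168 and 408 to 579 CPM. The summed level of 10 cumulus cell markers was 27.7 to 31.5 CPM in MII inputs, with 1 marker at 0, and 5.53 to 6.99 CPM in L2C inputs. Not every marker followed the sum of its list. Of the 10 oocyte markers, 8 fell and 2 rose from MII to L1C, and 9 fell and 1 rose from L1C to L2C. From MII to L2C, 7 of the 8 markers of the 2-cell embryo rose and 1 fell. Of 6 cumulus cell markers tested, 5 fell and 1 rose from MII to L2C. Several single libraries touched the results below. Among them, replicate 1 of the L1C inputs held the highest value of the 3 for all 8 genes, against 37.4% of all genes tested.

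To compare levels between genes, CPM was divided by the length of annotated exons. In MII inputs, Nlrp4a (196 ± 10.7 CPM per kb of exon, SD, n = 3 here and below) and Nlrp9a (191 ± 8.25) were highest and overlapped. Nlrp9b (141 ± 4.32) came next, followed by Nlrp9c (107 ± 6.58) and Nlrp14 (97.1 ± 7.49), which overlapped, by Nlrp4e (61.4 ± 2.41) and Nlrp4b (57.2 ± 3.04), which overlapped too, and by Nlrp4c (6.06 ± 0.475), which lay apart from all others. In L1C inputs the first 5 genes, from Nlrp4a (199.8 ± 42.1) to Nlrp9c (145 ± 41.3), each overlapped with their neighbour in the order. Nlrp4c was lowest again at 7.83 ± 1.51. The order was different in L2C inputs, where Nlrp9c led with 27.3 ± 6.58 CPM per kb, apart from Nlrp14 (14.8 ± 1.42), which overlapped with Nlrp9a (11.9 ± 2.21). Nlrp4a (5.72 ± 0.873), Nlrp4e (5.23 ± 1.18) and Nlrp9b (4.78 ± 0.999) came next, apart from Nlrp9a above and from Nlrp4b below, with overlap between Nlrp4a and Nlrp4e and between Nlrp4e and Nlrp9b. Nlrp4b (1.14 ± 0.507) and Nlrp4c (0.722 ± 0.132) were lowest and overlapped. By the TPM of the authors, which is divided by the gene span with introns, Nlrp4a also ranked first in MII and L1C inputs, and Nlrp9c in L2C inputs. Summed over the 8 genes, the inputs held 3609 ± 137 CPM at MII, 3991 ± 943 CPM at L1C and 327 ± 64.8 CPM at L2C.

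**Figure D2:**
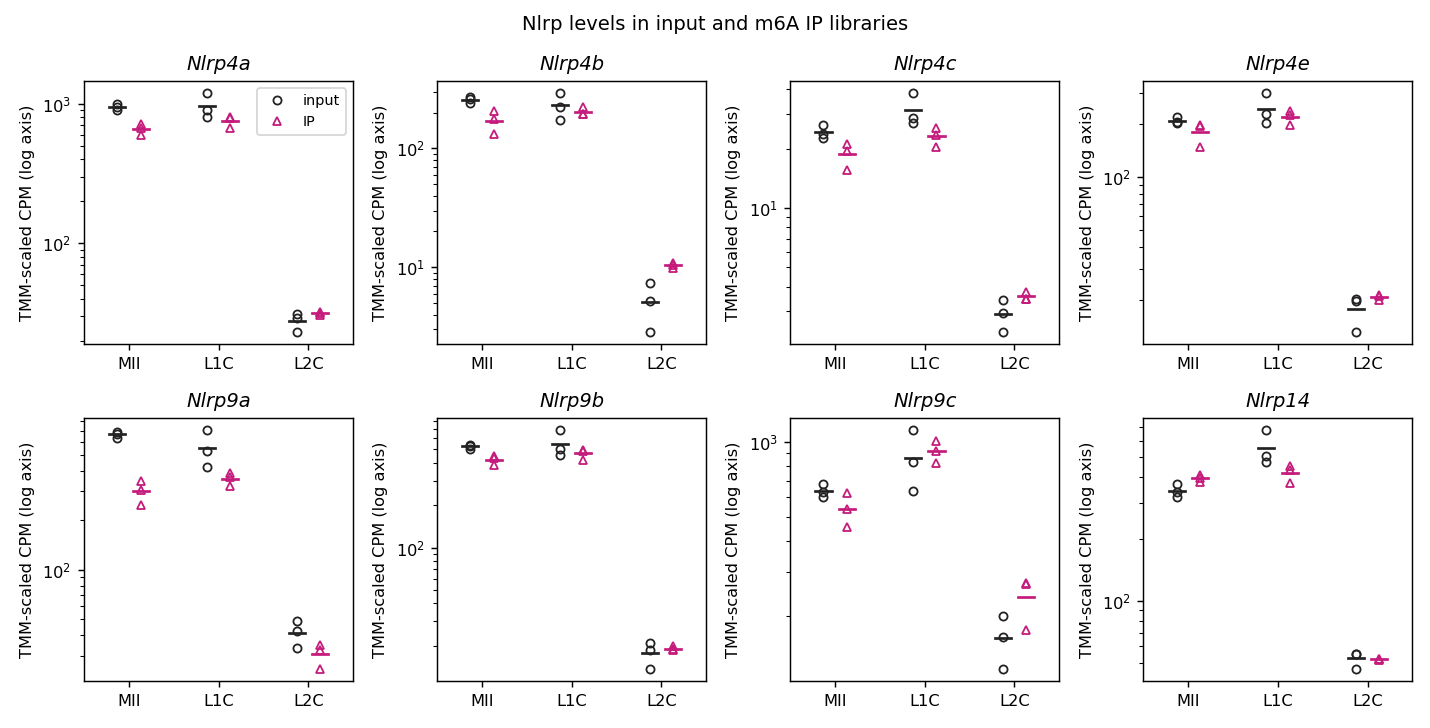
TMM-scaled CPM (log y axes, whose ranges differ between panels) of each gene in the input (circles) and IP (triangles) libraries at MII, L1C and L2C, with each point a library and each line the mean of 3. All 8 genes lie lowest at L2C, in inputs and in IPs.

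From MII to L1C, Nlrp14, Nlrp9c and Nlrp4c rose in the inputs, while the other 5 genes did not pass the test. Of all 19903 genes tested, 31.9% rose and 24.3% fell. Changes between inputs, and the shares left that follow from them, come from the fit to the 9 inputs with its own TMM scaling, so they differ somewhat from ratios of the printed CPM, which were scaled over all 18 libraries. Nlrp14 held 372.5, 337.5 and 320.5 CPM in the MII inputs and 682, 508 and 472.5 CPM in the L1C inputs. The groups did not overlap, as for 61.3% of all genes, and the log2 change was 0.78 ± 0.14 (SE, adjusted p = 0.00032). Nlrp9c held 632, 679 and 602 CPM at MII and 1122, 832.5 and 634 CPM at L1C. Here the lowest L1C library lay within the MII range, and the log2 change was 0.52 ± 0.19 (adjusted p = 0.033). Nlrp4c, with 22.7 to 26.4 CPM at MII and 27.1 to 38.3 CPM at L1C, changed by 0.45 ± 0.17 (adjusted p = 0.037). The other 5 genes had log2 changes from -0.18 (Nlrp9a) to 0.30 (Nlrp4e). The call of Nlrp14 held with any 1 library left out (log2 change 0.61 to 0.86). Without L1C input replicate 1, the log2 changes were 0.30 for Nlrp4c (adjusted p = 0.153) and 0.30 for Nlrp9c (adjusted p = 0.173), and Nlrp9a was then called lower at -0.39 (adjusted p = 0.0445). Nlrp4c was also lost without any 1 of the 3 MII inputs (adjusted p = 0.0526 to 0.126), as was Nlrp9c (0.0571 to 0.0957), which was lost without L1C input replicate 2 too (0.0534).

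From L1C to L2C all 8 genes fell in the inputs, by 4.51-fold to 37.3-fold (37.35), while 38.8% of all genes tested fell and 44.1% rose. The L1C and L2C libraries did not overlap for any of the 8 genes, as for 84.1% of all genes. The median log2 change of the 8 genes was -3.51, against 0.17 for all genes tested. Nlrp4b and Nlrp4a fell furthest, followed by Nlrp9b. Nlrp4b fell from 292, 223 and 173 CPM to 7.39, 2.84 and 5.17 CPM (log2 change -5.22 ± 0.28, adjusted p = 3.5e-10). Nlrp4a fell from 1197, 897 and 807.5 CPM to 29.0, 23.0 and 31.1 CPM (-4.88 ± 0.17, adjusted p = 8e-12). Nlrp9b fell from 454 to 690.3 CPM to between 13.7 and 20.9 CPM (-4.71 ± 0.19, adjusted p = 2.4e-11). In the fit, 2.68% to 3.83% of the L1C level was left for these 3 genes.

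Nlrp9c fell least. It held 199.8, 122 and 164.5 CPM in the L2C inputs, with 22.2% of the L1C level left in the fit (log2 change -2.17 ± 0.20, adjusted p = 1.3e-07), and was the only one of the 8 genes above 100 CPM there in every library. Its near copy Nlrp9a, with the common promoter run printed above, held 48.6, 33.3 and 42.1 CPM, with 8.84% left in the fit (-3.50 ± 0.19, adjusted p = 3.7e-10). Nlrp14 held 55.3, 46.55 and 55.2 CPM, with 11.2% left in the fit (-3.16 ± 0.15, adjusted p = 1.1e-10). The log2 change was -3.53 ± 0.18 for Nlrp4e and -3.19 ± 0.19 for Nlrp4c. Against MII all 8 genes fell too, as did 37.1% of all genes, and the share left at L2C was 31.8% for Nlrp9c, 19.1% for Nlrp14, 15.0% for Nlrp4c, 10.7% for Nlrp4e, 7.80% for Nlrp9a, 4.26% for Nlrp9b, 3.66% for Nlrp4a and 2.53% for Nlrp4b. Differences between genes in these shares were not tested. Added as 1 gene each, the 4 Nlrp4 genes fell by 4.54 and the 3 Nlrp9 genes by 2.91 on the log2 scale from L1C to L2C.

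**Figure D3:**
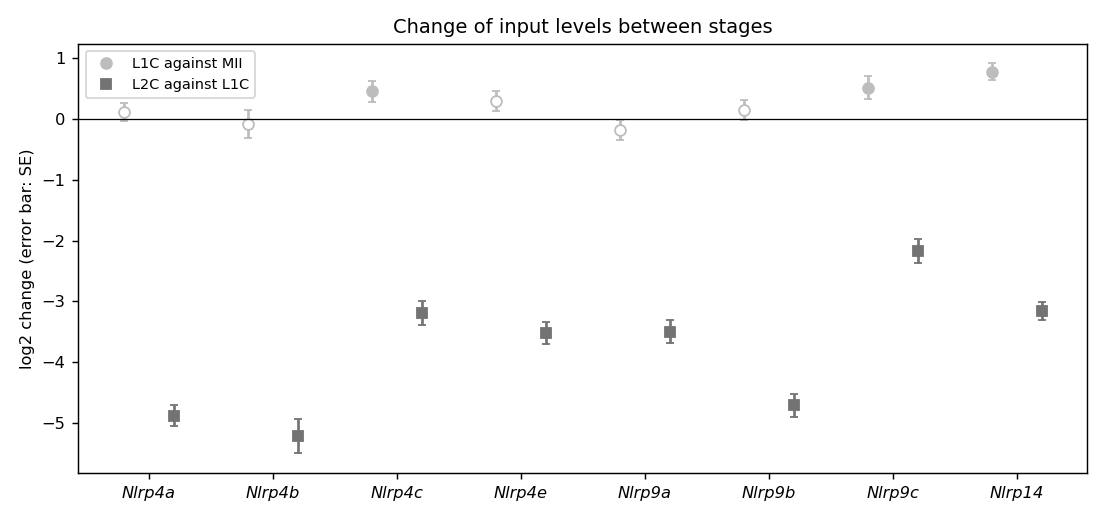
Log2 change of the input level (y axis, with SE) from MII to L1C (circles) and from L1C to L2C (squares) for each gene, filled where the adjusted p is under 0.05. All 8 squares are filled and lie between -5.22 and -2.17, whereas the circles lie between -0.18 and 0.78.

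Other genes of the family were read from the same fit. Of 12 further genes, Nlrx1 and otherwise Nlrp genes, 8 passed the filter, and from L1C to L2C 4 fell and 4 rose. Those that fell were the oocyte genes Nlrp4f (log2 change -5.72 ± 0.20), Nlrp4g (-4.28 ± 0.19), Nlrp5 (-3.16 ± 0.14) and Nlrp2 (-1.67 ± 0.15). Those that rose were Nlrp12, Nlrp3, Nlrp6 and Nlrx1, of which Nlrp12 was highest at L2C with 26.5 ± 0.738 CPM. Nlrp4d, the remaining Nlrp4 paralog, had at most 0.0528 CPM in any input. All 8 genes of the subcortical maternal complex list fell from L1C to L2C, with a median log2 change of -2.69. Of 9 inflammasome genes, among them the sensors Aim2 and Nlrc4, 6 passed the filter, of which 2 rose and 4 fell. The adaptor Pycard (4.96 ± 1.07 CPM at L2C) and the pore former Gsdmd (10.8 ± 2.12 CPM) rose, whereas Casp1 had at most 0.182 CPM and Il1b at most 0.145 CPM in any input.

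IP was then compared with input at each stage, which asks whether an RNA was over- or under-represented among antibody-bound RNA relative to other RNAs. At MII, Nlrp9a, Nlrp4a and Nlrp4b were lower in the IP, and none of the 8 genes was higher in the 18-library edgeR fit (0 at an unadjusted p under 0.05 too, and 0 by DESeq2). Of 21950 genes tested, 21.0% were lower and 17.7% higher. Nlrp9a held 672, 688 and 632 CPM in the MII inputs and 306, 247 and 345 CPM in the IPs. Every IP lay below every input, and 47.7% of all genes showed no overlap between the 2 kinds of library. The log2 IP/input was -1.15 ± 0.18 (SE, adjusted p = 4e-05). Nlrp4a held 1005, 943 and 902 CPM in the inputs and 670.5, 602 and 717 CPM in the IPs (-0.52 ± 0.14, adjusted p = 0.0058). Nlrp4b held 242, 268.5 and 260.3 CPM in the inputs and 177, 132 and 204.5 CPM in the IPs (-0.59 ± 0.22, adjusted p = 0.041), also without overlap. The call of Nlrp4b was lost without any 1 of the MII inputs and without IP replicate 1 or 2 (adjusted p = 0.0618 to 0.179). Nlrp14 had a log2 IP/input of 0.20 ± 0.13, and its 3 IPs (378 to 411 CPM) lay above its 3 inputs (320.5 to 372.5 CPM) without passing the test (adjusted p = 0.23). With only the MII libraries in the fit, Nlrp14 was called higher (0.25, adjusted p = 0.0399). The IPs of Nlrp4c (-0.38, adjusted p = 0.078), Nlrp9b (-0.31, 0.11) and Nlrp4e (-0.22, 0.32) lay below all their inputs, also without passing the test in the 18-library fit.

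At L1C, Nlrp9a, Nlrp4c and Nlrp14 were lower in the IP and none of the 8 genes was higher, against 18.2% of all genes lower and 15.8% higher (counts of 0 were also found at an unadjusted p under 0.05 and by DESeq2). Nlrp9a held 710.0, 528 and 421 CPM in the inputs and 365, 387 and 323 CPM in the IPs (log2 IP/input -0.63 ± 0.18, adjusted p = 0.010). Nlrp14 held 682, 508 and 472.5 CPM in the inputs and 436, 454 and 376 CPM in the IPs (-0.39 ± 0.13, adjusted p = 0.022). Nlrp4c was at 27.1 to 38.3 CPM in the inputs and 20.4 to 25.5 CPM in the IPs (-0.44 ± 0.16, adjusted p = 0.041). The inputs of these 3 genes did not overlap with their IPs, as for 44.7% of all genes, and the highest input was replicate 1 each time. Without it, no gene of the 8 was called, with -0.41 for Nlrp9a (adjusted p = 0.0793), -0.22 for Nlrp14 (0.156) and -0.28 for Nlrp4c (0.224). Nlrp14 was also lost without IP replicate 3 (0.0965) and Nlrp4c without IP replicate 1 or 3 (0.0556 and 0.148), and Nlrp4a, at -0.36 ± 0.14, was called without input replicate 3 (0.0196) or IP replicate 1 (0.0438).

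At L2C, Nlrp4b and Nlrp9c were higher in the IP and none of the 8 genes was lower by edgeR (1, Nlrp9a, at an unadjusted p under 0.05, and 0 by DESeq2), while 22.0% of all genes were higher and 22.0% lower. Nlrp4b held 7.39, 2.84 and 5.17 CPM in the inputs, from 226, 63 and 211 estimated counts, and 9.83, 10.8 and 10.5 CPM in the IPs. All IPs lay above all inputs (56.1% of all genes did not overlap), and the log2 IP/input was 0.99 ± 0.25 (adjusted p = 0.003). Nlrp9c held 199.8, 122 and 164.5 CPM in the inputs and 271, 174.5 and 267 CPM in the IPs, so that the groups overlapped (0.55 ± 0.21, adjusted p = 0.037). Its call was lost without input replicate 2 or 3 or IP replicate 1 or 3 (adjusted p = 0.0816 to 0.192). Nlrp9a stayed on the lower side at -0.42 ± 0.18 (adjusted p = 0.068) and was called without input replicate 2 (-0.56, adjusted p = 0.0288). By edgeR it was also called lower with no filter (-0.46, adjusted p = 0.01), with a replicate block (-0.42, 0.0373) and with only the L2C libraries (-0.47, 0.034). Nlrp14 was at -0.02 ± 0.13, with inputs of 46.55 to 55.3 CPM around IPs of 51.5 to 52.1 CPM. Nlrp4e, at 0.23 ± 0.17, was called higher at 0.51 (adjusted p = 0.0222) when the 5 pseudogenes of like sequence were added to it, of which Gm4541 held 6.81 ± 2.71 CPM in the IPs and 0.436 ± 0.383 CPM in the inputs.

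The IP/input values of single genes depend on the scale. Scaled to library size alone, the median log2 IP/input over all genes came to 0.20 (MII), 0.37 (L1C) and 0.34 (L2C), against 0.00, 0.07 and 0.09 with TMM. Of all genes, 26.2% were then higher in the MII IP and 16.2% lower. The L1C IP had 29.0% higher and 11.9% lower, and the L2C IP 33.3% and 16.0%. On that scale Nlrp14 was called higher at MII (0.44, adjusted p = 0.00761), Nlrp9a was the only one of the 8 genes called lower at MII (-0.91), no gene was called at L1C, and 5 genes (Nlrp4a, Nlrp4b, Nlrp4c, Nlrp4e and Nlrp9c) were called higher at L2C. The sign changed for Nlrp4e at MII, for Nlrp4b, Nlrp4e and Nlrp9b at L1C and for Nlrp14 at L2C, none of which passed the test on either scale.

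**Figure D4:**
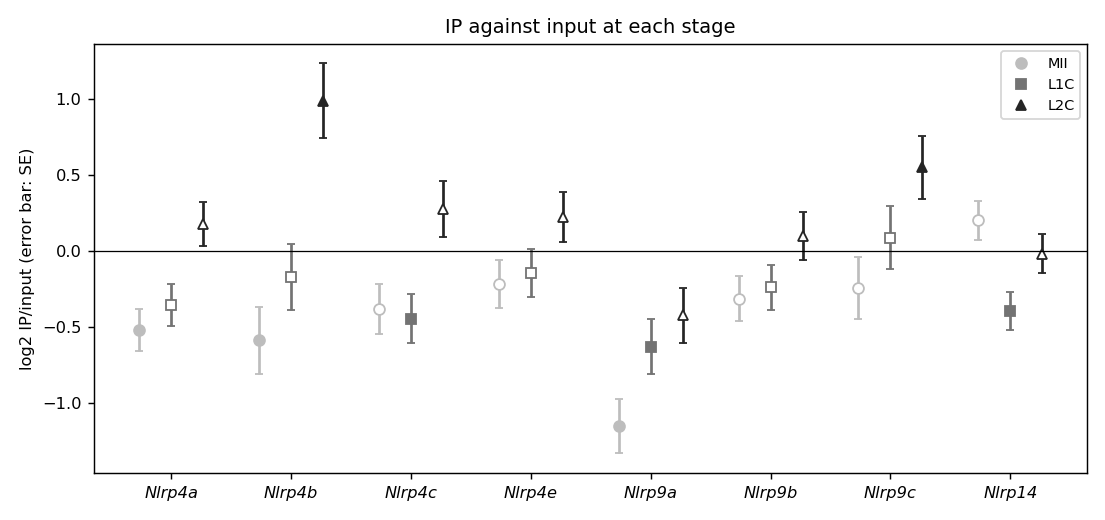
Log2 IP/input (y axis, with SE, TMM scale) of each gene at MII (circles), L1C (squares) and L2C (triangles), filled where the adjusted p is under 0.05. Nlrp4b runs from -0.59 at MII to 0.99 at L2C, and Nlrp9a lies below 0 at all 3 stages.

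The change of IP/input between stages was tested itself. From MII to L2C, Nlrp4b and Nlrp4a gained, against 11.1% of all genes. The change was 1.58 ± 0.33 on the log2 scale for Nlrp4b (adjusted p = 0.0019) and 0.70 ± 0.20 for Nlrp4a (adjusted p = 0.018). Nlrp9c (0.79 ± 0.29, adjusted p = 0.061), Nlrp9a (0.73 ± 0.25, adjusted p = 0.0501), Nlrp4c (0.66 ± 0.25), Nlrp4e (0.44 ± 0.23) and Nlrp9b (0.41 ± 0.22) did not pass the test, and Nlrp14 had -0.22 ± 0.18. The median over the 8 genes was 0.68, against 0.06 for all genes tested. The call of Nlrp4b held with any 1 library left out, whereas Nlrp4a was lost without MII IP replicate 2 (0.62, adjusted p = 0.05) or L2C input replicate 2 (0.57, adjusted p = 0.0546). Without L2C input replicate 1, Nlrp9a (0.85, adjusted p = 0.0327), Nlrp9c (0.96, adjusted p = 0.031) and Nlrp4c (0.78, adjusted p = 0.0467) were called as well. Without L2C IP replicate 2, Nlrp9a (0.0244) and Nlrp9c (0.0187) were, as Nlrp9a was without MII IP replicate 3 (0.0381). Nlrp9a and Nlrp9c were also called with no filter (0.0126 and 0.00395) and with a replicate block (0.0292 and 0.0254). Added as 1 gene each, the Nlrp4 genes (0.79, adjusted p = 0.014) and the Nlrp9 genes (0.91, adjusted p = 0.021) gained. Summed in this way, both sets were lower in the MII IP (-0.48, adjusted p = 0.0174, and -0.54, adjusted p = 0.0325). Neither was called in the L2C IP (0.31 and 0.38, adjusted p = 0.118 for each), in the L1C IP (-0.29, adjusted p = 0.157, and -0.17, adjusted p = 0.526) or from MII to L1C in the inputs (0.11, adjusted p = 0.564, and 0.19, adjusted p = 0.387), where Nlrp4b, Nlrp9c, Nlrp4c and Nlrp9a had been called alone, and the gain of the Nlrp4 genes from L1C to L2C was 0.60 (adjusted p = 0.0933). From L1C to L2C, Nlrp4b alone gained 1.16 ± 0.33 (adjusted p = 0.032), against 5.0% of all genes, and this call was lost without L1C input replicate 1, L1C IP replicate 1 or 3, L2C input replicate 2 or 3, or L2C IP replicate 2 or 3 (0.89 to 1.16, adjusted p = 0.0502 to 0.0915). From MII to L1C, Nlrp14 lost 0.60 ± 0.18 (log2 change -0.60, adjusted p = 0.049), against 4.21% of all genes, and was lost without any 1 of the 6 MII libraries, the 3 L1C IPs or L1C input replicate 1 (-0.66 to -0.42, adjusted p = 0.051 to 0.119).

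The sequence GGACT, the commonest form of the m6A motif, was counted on the mRNA strand of the exons. Nlrp4b held 7 copies, 1.56 per kb of exon, more per kb than 80.8% (80.85%) of 21884 protein-coding genes. Nlrp4a held 6 copies (1.24 per kb), Nlrp9a 4 (1.15), Nlrp9c 6 (1.01) and Nlrp4c 4 (0.998), close to the median of 0.976 per kb or above it. Nlrp14 (3 copies, 0.848 per kb), Nlrp9b (3 copies, 0.806) and Nlrp4e (2 copies, 0.588) lay below the median. Whether the number of copies bears on IP/input was not tested. No step of fragmentation before the IP is described, so a value of IP/input belongs to a whole transcript and does not place m6A within it.

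In the knockdown experiment, Ythdc1 itself was at 1080, 1098 and 994 CPM in Ctrl and at 523, 541 and 519 CPM in the KD libraries (log2 change -1.004 ± 0.06, SE, adjusted p = 1.3e-10). Of the 8 genes, Nlrp9a, Nlrp14, Nlrp9c, Nlrp4a and Nlrp9b fell, and none rose (0 by DESeq2 as well, and 1, Nlrp4c, at an unadjusted p under 0.05). Of 7433 genes tested, 37.4% fell and 33.5% rose, all of them from a table that ends within chromosome 7, beyond the 8 genes. Nlrp9a fell from 205, 190.2 and 192 CPM to 97.05, 112 and 93.9 CPM, to 51.4% of Ctrl (log2 change -0.96 ± 0.09, adjusted p = 2.5e-08). Nlrp14 fell from 474, 443 and 369 CPM to 244, 247 and 258 CPM, to 58.1% (-0.78 ± 0.08, adjusted p = 1.5e-07). Nlrp9c, the highest of the 8 genes per kb in Ctrl too, fell from 1366, 1283 and 1105 CPM to 805, 730.2 and 742 CPM, to 60.6% (-0.72 ± 0.07, adjusted p = 8.4e-08). Every KD library lay below every Ctrl library for these 3 genes.

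Nlrp4a fell from 174, 172 and 150.0 CPM to 121, 116 and 116 CPM (-0.49 ± 0.09, adjusted p = 6e-05), and Nlrp9b from 97.75, 101 and 90.95 CPM to 70.75, 64.0 and 72.0 CPM (-0.48 ± 0.10, adjusted p = 0.00025), again without overlap, as was seen for 72.8% of all genes tested. The other 3 genes lay on the higher side and overlapped. Nlrp4b was at 31.6, 38.8 and 28.1 CPM in Ctrl and 35.4, 39.0 and 39.7 CPM in KD (0.20 ± 0.14, adjusted p = 0.21). Nlrp4e was at 58.4, 58.2 and 45.2 CPM and at 65.5, 60.4 and 56.3 CPM (0.16 ± 0.12, adjusted p = 0.25). Nlrp4c, from 12 to 40 counts a library, was at 3.48 to 6.175 CPM and at 6.12 to 8.13 CPM (0.71 ± 0.33, adjusted p = 0.062), and was called higher without KD replicate 2 (0.82, adjusted p = 0.0473) or Ctrl replicate 2 (1.03, adjusted p = 0.0253). The 5 falls were called with each library left out in turn, with DESeq2 and on library size, and with TMM none of the 8 genes passed 1 on the log2 scale in either direction with all 6 libraries. The directions of all 8 genes were the same on these scales.

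Among the other genes of the family that the knockdown table holds, Nlrp5 (log2 change -0.79 ± 0.08) and Nlrp2 (-1.52 ± 0.14) fell, while Nlrp12 did not pass the test (0.18 ± 0.12). The summed level of the 6 markers of the 2-cell embryo in the table was 1894 to 2057 CPM in Ctrl and 544 to 618 CPM in KD, and 5 of these markers fell while 1 rose. Of 5 oocyte markers, 2 fell, 1 rose and 2 were not called. Their summed level was 1208 to 1243 CPM in Ctrl and 770 to 786 CPM in KD, of which Bmp15 made up 849.8 ± 40.6 and 388 ± 21.3 CPM, whereas Zp3 rose from 195 ± 16.0 to 272 ± 10.3 (10.35) CPM. The part of these differences in the values of the 8 genes was not tested. In this experiment reads were counted on exons with featureCounts, per the file headers with no option for reads with several alignments, which the program then leaves out. How many reads of the 8 genes this removed was not measured.

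**Figure D5:**
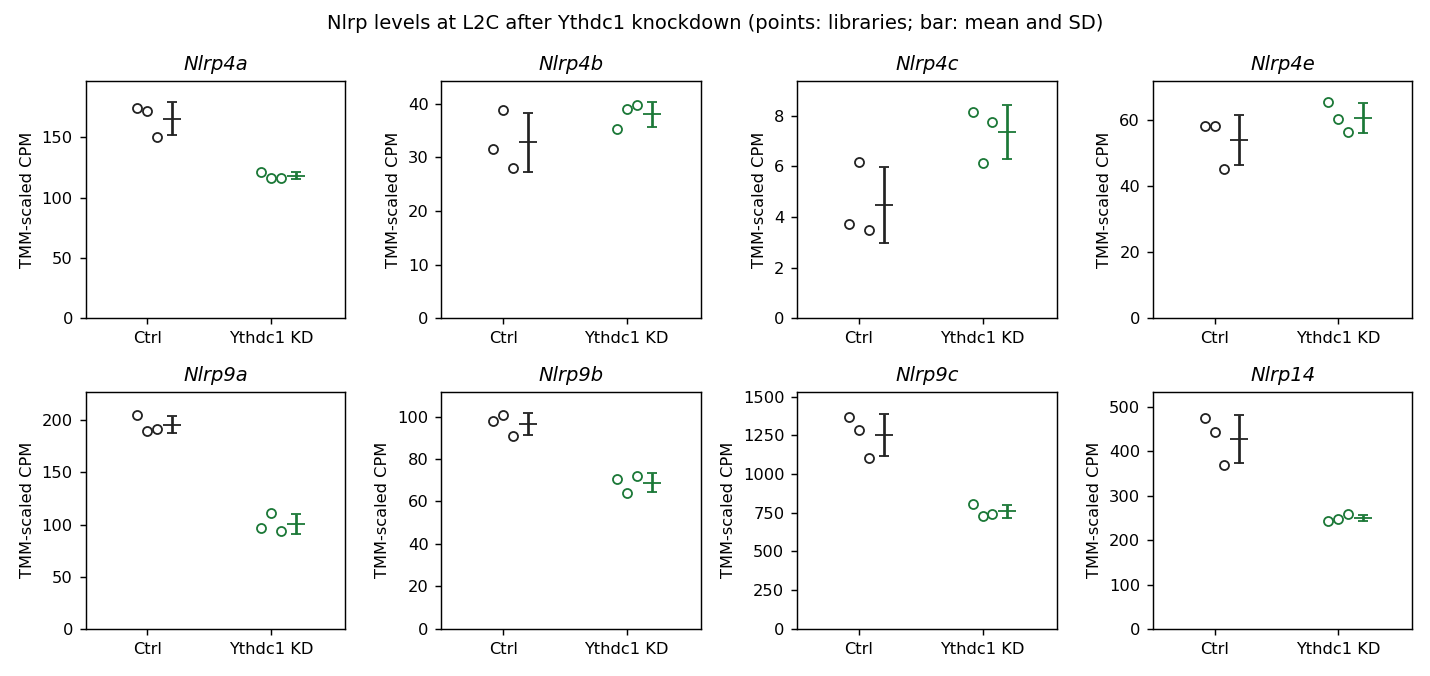
TMM-scaled CPM (linear y axes from 0, whose ranges differ between panels) of each gene at L2C in 3 Ctrl and 3 Ythdc1 KD libraries, with each circle a library and bars showing mean and SD. The KD libraries of Nlrp4a, Nlrp9a, Nlrp9b, Nlrp9c and Nlrp14 lie below all Ctrl libraries, whereas those of Nlrp4b, Nlrp4c and Nlrp4e overlap with Ctrl.

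Over the 18 SLIM-seq libraries, the log2 CPM of the 8 genes ran alongside each other, with a Pearson r from 0.92 (Nlrp9a and Nlrp9c) to 1.00 (0.9992, Nlrp4a and Nlrp9b). The points fall into 3 stages and share their libraries. Among 10294 other protein-coding genes with a mean of at least 10 CPM in some group, the pattern most like that of Nlrp4a, Nlrp4c, Nlrp4e and Nlrp9b was that of Nlrp4f (r = 0.9993, 0.9944, 0.9969 and 0.9985). For Nlrp4b it was that of Spata6 (0.9953), for Nlrp9a Mastl (0.9955), for Nlrp9c Fbxo8 (0.9874) and for Nlrp14 Usp46 (0.9953).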

How the data were processed

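Expected counts deposited by the authors for the SLIM-seq libraries come from kallisto, with each gene as 1 target that spans its introns, and are not scaled to library size. The deposited TPM were computed in the same runs. Reads of the knockdown experiment had been trimmed (Trimmomatic) and aligned to GRCm38 (HISAT2), and the authors deposited raw counts on exons from featureCounts 2.0.1. The merged knockdown table ends within chromosome 7, as does the file of KD replicate 3, and holds 25739 genes with 37.5% to 39.0% of the counts in the other 5 libraries, so its CPM are higher than those of whole libraries. Expected counts were rounded and fitted with edgeR 4.0.16 in R 4.3.3 (TMM scaling, quasi-likelihood test, filterByExpr): 18 SLIM-seq libraries with 6 group means, 9 inputs with 3, and 6 knockdown libraries with 2. Calls are at a p-value under 0.05 after Benjamini-Hochberg adjustment over all genes tested, and an SE is the size of the log2 change divided by the square root of its F statistic. Gene symbols, types and exons came from GENCODE M21 and the headers of the count files, promoters from RefSeq (GRCm38.p6). The fits were tested on simulated data with the same spread for every gene, where the smaller changes of IP/input between stages were often missed. A gene not called for such a change can therefore still differ. Alternatives were DESeq2 1.42.0, scaling to library size, no filter, a replicate block, fewer libraries, paralogs summed, other call rules and each library left out. Summing Nlrp4e with genes of like sequence was added after seeing the data. Named genes were the 8 genes, every gene of the 3 lists (other Nlrp, subcortical maternal complex, inflammasome), Ythdc1 and, for each of the 8, the gene of most similar pattern, while the pseudogenes were named after their values were seen. The oocyte markers Bmp15 and Zp3 and the genes that overlap with a span were named in addition. The genes, lists and tests were chosen with earlier results of these data known. Figures were made with matplotlib 3.10.9.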

Additional observations from a re-analysis of the deposited data

Results flagged for a closer look

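The IP/input of 3 of the 8 genes differed between stages by the test of the difference itself. Nlrp4b gained 1.58 on the log2 scale from MII to L2C and 1.16 from L1C to L2C, Nlrp4a gained 0.70 from MII to L2C, and Nlrp14 changed by -0.60 from MII to L1C. At L2C the inputs of Nlrp4b held 63 to 226 estimated counts, the fewest behind any of these 4 values. The change of Nlrp14 is the one nearest to the threshold, and the L1C input with the highest value of all 8 genes (replicate 1) enters it. Groups of 3 libraries are too small for a test of single outlying libraries, and none was made.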

How the results depend on the processing

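All 8 falls from L1C to L2C and from MII to L2C, and the 5 falls after knockdown, were called in every refit at an adjusted p under 0.05. Of 1024 refits of a single gene in a comparison, those of summed genes left out, 934 stayed on the same side of the threshold, 64 lost and 26 gained a call, and no called value reversed. With DESeq2, 1 gene rose from MII to L1C (23.6% of all genes did), without Nlrp4c (adjusted p = 0.0721) and Nlrp9c (0.0521). Nlrp4b at MII (0.0723) and Nlrp4c at L1C (0.0567) were no longer lower in the IP. On library size, 1 gene was higher and 1 lower in the MII IP (26.2% and 16.2% of all genes). At L1C 0 were lower (11.9%), and at L2C 5 were higher (33.3%). IP/input was lost by 0 genes from MII to L1C (3.86%). From MII to L2C 3 gained (11.7%), with Nlrp9a (0.74, adjusted p = 0.0457). With no filter, 1 gene, Nlrp9a (-0.46, adjusted p = 0.01), was lower in the L2C IP, as were 13.2% of all genes. IP/input was lost by 0 genes from MII to L1C (2.57% of all genes) and gained by 4 from MII to L2C (5.68%). Nlrp4c then lost its rise from MII to L1C (0.091) and its call at L1C (0.0952). With only the libraries compared, 1 gene, Nlrp14 (0.25, adjusted p = 0.0399), was higher at MII (27.6% of all genes). There, 4 were lower (28.2%), with Nlrp9b (-0.26, adjusted p = 0.0424). At L1C 1 was lower (20.5%). At L2C 1 was higher (22.3%) and 1, Nlrp9a (-0.47, adjusted p = 0.034), was lower (25.8%). From L1C to L2C 0 gained (2.55%). With a log2 change above 1 in size and an unadjusted P value, 0 genes fell after knockdown. The cause was not tested.

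The paper states that inputs and IPs came from the same batches, but no label ties a replicate number to a batch. Same-numbered libraries did not deviate together (r from -0.154 to 0.133 over 21 pairs, 1 of them over 0.1), so the numbers were not taken to pair samples. With the replicate number as a block, 1 gene, Nlrp9a (-0.42, adjusted p = 0.0373), was lower in the L2C IP (20.6% of all genes). IP/input was lost by 0 genes from MII to L1C (3.13%), with Nlrp14 at an adjusted p of 0.0846. From L1C to L2C 0 gained (2.75%), with Nlrp4b at 0.059. From MII to L2C 4 gained (8.92%), with Nlrp9a (0.74, adjusted p = 0.0292) and Nlrp9c (0.80, adjusted p = 0.0254). Nlrp4b at MII (adjusted p = 0.0508) and Nlrp4c at L1C (0.0689) were no longer lower in the IP.

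With 1 library left out, the count of genes that rose from MII to L1C ran from 1 to 3 and of those that fell from 0 to 1. Counts lower in the IP ran from 2 to 3 at MII, 0 to 4 at L1C and 0 to 1 at L2C, and those higher at L2C from 1 to 2. For IP/input, 0 to 1 lost from MII to L1C, 0 to 1 gained from L1C to L2C and 1 to 5 gained from MII to L2C. After knockdown 0 to 1 rose.

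The lowest counts were those of Nlrp4c, with 12 to 40 per knockdown library and 52 to 120 per L2C input, followed by Nlrp4b with 63 to 226 per L2C input.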

Other observations

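In the 2 experiments the L2C embryos gave different levels, on scales that differ. Nlrp9c was at 1251 ± 133 CPM in Ctrl (SD, n = 3) and at 162 ± 39.0 CPM in the L2C inputs, Nlrp14 at 429 ± 53.9 and 52.4 ± 5.04 CPM, and Nlrp4e at 53.9 ± 7.55 and 17.8 ± 4.01 CPM. Ythdc1 was at 1057 ± 55.2 CPM in Ctrl and at 18.0 ± 2.91 CPM in the L2C inputs. The Ctrl values refer to the genes of the merged table and to exons, the input values to all genes and to whole gene spans, and the experiments differ in injection and library, so no test was made. Per kb of exon, the order of the 8 genes began with Nlrp9c, Nlrp14, Nlrp9a and Nlrp4a in both.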
